A study of Mus musculus with 18 samples.

Results

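The 10 core genes of the mTOR pathway were followed in the livers of mice that carry a ribosomal accuracy mutation. The genes were *Mtor*, *Rptor*, *Rictor*, *Mlst8*, *Deptor*, *Tsc1*, *Rheb*, *Rps6kb1*, *Eif4ebp1* and *Eif4ebp2*, taken by symbol through the Ensembl identifiers of the count lists. They are 10 of 22524 genes listed and 10 of 13353 genes with enough reads to be tested, and the rule that names them uses no measured value. All 10 passed the filter on low counts, with between 173 counts (*Mlst8*) and 11320 counts (*Deptor*) in any 1 mouse.

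RNA-Seq was performed on liver of 18 female C57BL/6 mice aged 15 months, with 1 library per mouse. Of these, 10 were heterozygous knock-in mice with the *Rps2*-A226Y allele (A226Y) and 8 were wild-type mice that express Cre recombinase (WT). The A226Y line came from a cross with CMV-Cre mice, which express Cre recombinase in all tissues. Whether every A226Y mouse analysed here carried the transgene is not given in the sources used here. The A226Y protein change lies in RPS2, a protein of the small ribosomal subunit. The study measured more mistranslation with it in a reporter assay in cultured cells, and mistranslation was not measured in these libraries. The comparison asks how the liver transcriptome differs in mice with this allele. The allele holds a transcriptional stop cassette between *loxP* sites, and its excision by Cre was incomplete, so each A226Y liver is a mosaic of cells with the mutant allele and cells in which 1 copy of *Rps2* is silent. The allele was made in embryonic stem cells of another mouse strain and bred onto C57BL/6, and mice with the unexcised allele alone were not analysed here. Mice are named by the running number in the title of their library.

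Libraries held between 23850565 and 62126131 counts. *Rps2* itself (chr17:24718116-24721929, plus strand, GRCm38) fell by 39.9%, from 114.1 ± 13.03 CPM in WT (SD, n = 8) to 68.6 ± 13.3 CPM in A226Y (SD, n = 10), where CPM are read counts scaled to library size with TMM factors. The groups did not overlap (46.9 to 83.0 CPM in A226Y against 103.9 to 143.1 CPM in WT). The libraries of A226Y mouse 29 and WT mouse 33 stood apart, with the lowest mean rank correlations to their own group (0.973 and 0.981), and values without both are given where they change a call. The 8 hepatocyte markers summed to between 73738 and 147950 CPM in A226Y and between 89400 and 173800 CPM in WT, so liver parenchyma dominated every library, and 2 of the 8 passed edgeR's test (adjusted p-value under 0.05) as higher and 2 as lower (50%, beside 14.3% of all tested genes). The 7 markers of Kupffer cells and macrophages summed to between 269 and 1062 CPM (median 366) in A226Y and between 404 and 817 CPM (median 587) in WT, and 1 of the 7, *Clec4f*, passed the test as lower (also 14.3%), while 6 of the 7 had negative changes (median -0.42 on the log2 scale). Of the marker lists for sinusoidal endothelium, stellate cells, cholangiocytes and blood leukocytes, 1 gene passed, the stellate marker *Colec11*, as lower. Changes were positive for 4 of the 6 stellate markers (median 0.03 on the log2 scale) and 3 of the 6 endothelial markers (median -0.006). They were positive for all 5 tested cholangiocyte markers (median 0.21) and for 2 of the 8 leukocyte markers (median -0.25). Their part in the results was not tested, and in whole tissue fewer cells of a type and less RNA per cell cannot be told apart.

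mTOR is a protein kinase that couples nutrients, insulin and energy to growth, and it works in a pair of complexes. mTORC1 contains mTOR, RAPTOR and MLST8, is switched on at the lysosome by the small GTPase RHEB, is held back by the TSC complex, and drives translation by phosphorylating the S6 kinases and the 4E-BP proteins. mTORC2 contains RICTOR in place of RAPTOR and phosphorylates AKT and SGK1, and DEPTOR binds mTOR and inhibits it. In liver this network balances protein and lipid synthesis against autophagy between feeding and fasting. All values here are RNA levels, and neither protein nor phosphorylation was measured in these libraries.

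Among the core genes, the RNA of the translational repressor *Eif4ebp1* fell by 20.5% in A226Y liver, and that of the mTORC2 subunit *Rictor* rose by 23.1%. The remaining 8 did not pass the test, with *Mtor* itself 18.6% higher and the other 7 within 10.7% of WT. Calls were made with edgeR's quasi-likelihood test at a Benjamini-Hochberg adjusted p-value under 0.05 over all 13353 genes. By this rule 1 member of 10 was higher, where 7.27% of all tested genes were, and 1 of 10 was lower, where 7.03% were. In either direction this is 20% of members beside 14.3% of all tested genes (1910 genes). At an unadjusted p-value under 0.05 there were 3 of 10 members, beside 29.6% of all tested genes. The median log2 fold change of the 10 genes was 0.04 and that of all genes was -0.0044, and the median size of the change, whatever its sign, was 0.089 for members and 0.139 for all genes.

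**Figure D1:**
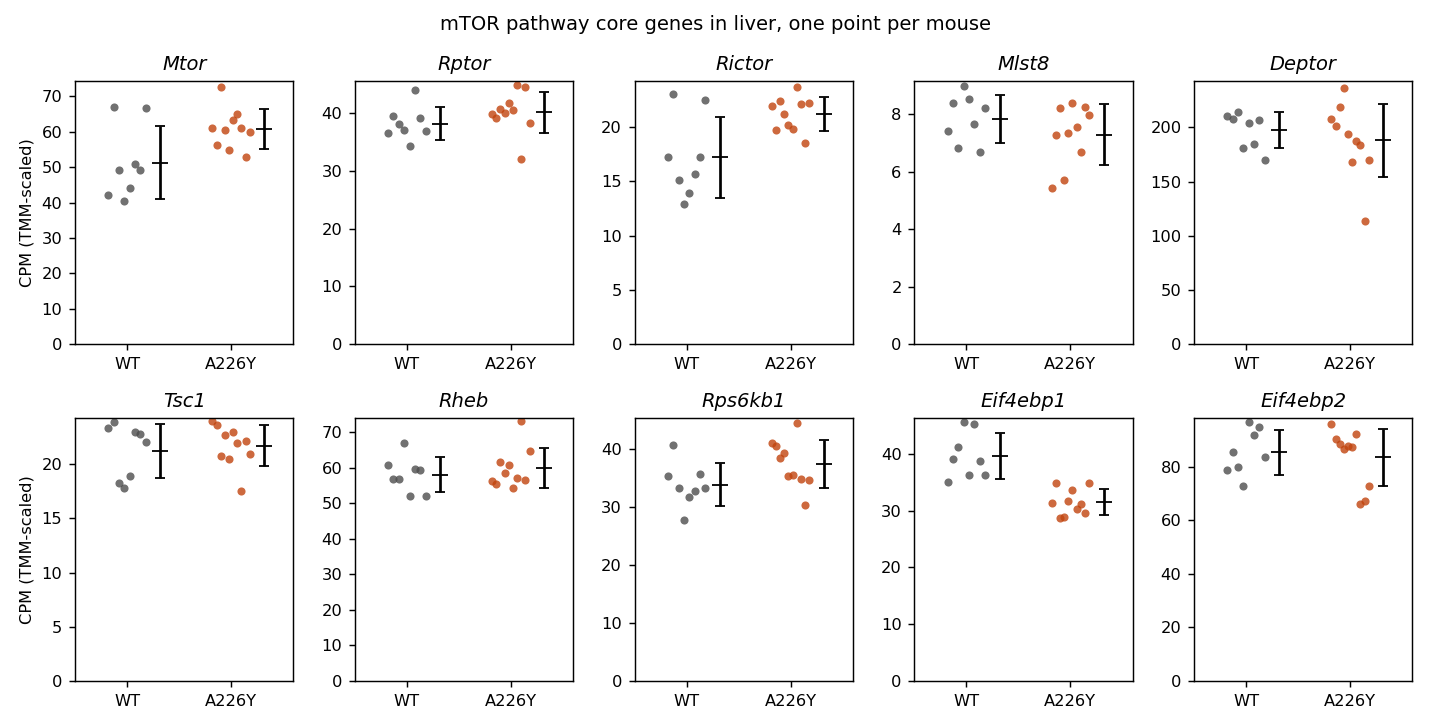
Level of each core gene in CPM on a linear axis from 0, with 1 point per mouse (WT grey, n = 8; A226Y orange, n = 10) and the mean with its SD beside each group. The groups separate only for *Eif4ebp1*, and 2 WT mice lie far above the other 6 for both *Mtor* and *Rictor*.

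*Mtor* encodes the kinase of both complexes (chr4:148448611-148557683, plus strand). Its level ran from 52.7 to 72.7 CPM (median 60.8) in A226Y and from 40.4 to 67.0 CPM (median 49.2) in WT. Each of the 10 A226Y mice exceeded the mean of WT, but WT mice 6 and 33, at 67.0 and 66.7 CPM, were above 9 of the 10 A226Y mice. The log2 fold change was 0.25 (SE 0.095, 95% interval 0.05 to 0.44), with an unadjusted p-value of 0.0173 and an adjusted p-value of 0.0847 by edgeR. The exact permutation test on log2 CPM, which enumerates 43758 regroupings of the mice, gave a two-sided p = 0.0179. The adjusted p-value fell below the threshold when WT mouse 6 (log2 fold change 0.31, adjusted p = 0.0211 by edgeR) or WT mouse 33 (0.31, adjusted p = 0.0288) was left out. With both libraries that stood apart left out, the log2 fold change was 0.33 (adjusted p = 0.0162). With the transcript length offset it was 0.13 (adjusted p = 0.314) and with 4 surrogate variables 0.11 (adjusted p = 0.537).

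*Rictor* encodes the subunit that defines mTORC2 (chr15:6708379-6800401, plus strand). It was at 18.5 to 23.7 CPM (median 21.6) in A226Y and at 12.9 to 22.98 CPM (median 16.5) in WT. Every A226Y mouse was above 6 of the 8 WT mice, and the other two, WT mice 6 and 33 at 22.98 and 22.5 CPM, were the same pair that was high for *Mtor*. The log2 fold change was 0.30 (SE 0.098, 95% interval 0.10 to 0.50, adjusted p = 0.0451 by edgeR, exact permutation p = 0.00647). The adjusted p-value was close to the threshold and stayed under it when A226Y mouse 5, A226Y mouse 29, WT mouse 6 or WT mouse 33 was left out, but not when any of the other 14 mice was (log2 fold change 0.25 to 0.37, adjusted p from 0.00872 to 0.0943). With an offset for transcript length the log2 fold change fell to 0.18 (adjusted p = 0.163), with one for GC content to 0.24 (0.097), and with 4 surrogate variables to 0.11 (0.406). *Rictor* has the longest transcript of the 10 genes, at 9.312 kb.

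*Rptor* encodes RAPTOR, which presents substrates to mTORC1 (chr11:119602905-119899576, plus strand). Levels were 32.02 to 44.9 CPM (median 40.2) in A226Y and 34.2 to 43.9 CPM (median 37.5) in WT. The ranges overlapped, with A226Y mouse 23 below every other mouse, and the log2 fold change was 0.07 (SE 0.060, adjusted p = 0.442), with a 95% interval of -0.05 to 0.20. Under the transcript length offset its sign turned (-0.014), and under the GC offset it was 0.14 (adjusted p = 0.097).

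*Mlst8* encodes the WD40 subunit common to both complexes (chr17:24473551-24479078, minus strand). It ran from 5.42 to 8.39 CPM (median 7.45) in A226Y and from 6.67 to 8.97 CPM (median 7.93) in WT. The ranges overlapped, with 2 A226Y mice below every WT mouse, and its log2 fold change of -0.11 (SE 0.092, 95% interval -0.30 to 0.09, adjusted p = 0.472) did not pass. *Mlst8* lies 239 kb from *Rps2* on the same chromosome, where sequence from those stem cells may still accompany the targeted allele, so linked variants and the mutation cannot be told apart there. Of 164 tested genes within 5 Mb of *Rps2*, 32 passed the test (19.5%, beside 14.3% of all tested genes), 14 of them as higher.

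*Deptor* encodes the inhibitor that binds mTOR (chr15:55112317-55259271, plus strand). It ran from 114.0 to 236.7 CPM (median 190.8) in A226Y and from 169.9 to 214.6 CPM (median 205.7) in WT. The A226Y range was the wider and enclosed the WT range, with A226Y mouse 29 far below all others and A226Y mice 7 and 11 above every WT mouse. The log2 fold change was -0.07 (SE 0.102, 95% interval -0.28 to 0.14, adjusted p = 0.693).

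Neither gene of the switch in front of mTORC1 passed the test. *Tsc1*, which encodes hamartin and stabilises the TSC complex (chr2:28641228-28691167, plus strand), was at 17.5 to 23.96 CPM (median 22.05) in A226Y and 17.8 to 23.9 CPM (median 22.4) in WT. These ranges are almost the same, and the log2 fold change of 0.03 (SE 0.071, 95% interval -0.12 to 0.18, adjusted p = 0.824) turned negative with the transcript length offset (-0.08), with surrogate variables (-0.05) and without WT mouse 14 (-0.003). *Rheb*, the GTPase that activates mTORC1 (chr5:24802823-24842624, minus strand), was at 54.2 to 73.0 CPM (median 57.7) in A226Y and 51.9 to 66.8 CPM (median 58.1) in WT. Of the A226Y mice, 5 exceeded the mean of WT and 5 did not, with a log2 fold change of 0.04 (SE 0.062, 95% interval -0.09 to 0.17, adjusted p = 0.684).

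*Eif4ebp1* had the smallest p-value of the 10 genes. It encodes 4E-BP1, which binds the cap-binding protein eIF4E and blocks initiation until mTORC1 phosphorylates it (chr8:27260329-27276674, plus strand). In A226Y its level was 28.8, 28.9, 29.6, 30.2, 31.1, 31.3, 31.7, 33.7, 34.9 and 34.9 CPM from lowest to highest. In WT it was 35.0, 36.3, 36.3, 38.6, 39.0, 41.2, 45.2 and 45.5 CPM. The groups did not overlap, although the highest A226Y mouse (34.929 CPM) and the lowest WT mouse (35.046 CPM) nearly touched. Complete separation with A226Y below WT was met by 38 of all tested genes (0.285%). The log2 fold change was -0.33 (SE 0.060, 95% interval -0.46 to -0.21), with an adjusted p-value of 0.00253 by edgeR and an exact permutation p of 4.57e-05. It stayed called whichever mouse was left out (-0.36 to -0.30, adjusted p at most 0.00672), but with surrogate variables as covariates the adjusted p-value was 0.0712 (log2 fold change -0.26).

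*Eif4ebp2*, the paralog that encodes 4E-BP2 (chr10:61428491-61452661, minus strand), did not show this. It was at 66.0 to 96.1 CPM (median 87.5) in A226Y and 72.9 to 96.8 CPM (median 84.6) in WT, and 7 of the A226Y mice exceeded the mean of WT. Its log2 fold change was -0.04 (SE 0.080, 95% interval -0.20 to 0.13, adjusted p = 0.811), and its sign turned with scaling by library size alone (0.0059) and with the GC offset (0.0071).

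*Rps6kb1* encodes S6K1, the kinase of ribosomal protein S6 (chr11:86498871-86544805, minus strand). Its level ran from 30.3 to 44.6 CPM (median 36.9) in A226Y and from 27.8 to 40.7 CPM (median 33.3) in WT. In A226Y, 9 mice exceeded the mean of WT, yet the groups overlapped and the log2 fold change of 0.15 (SE 0.074, 95% interval -0.01 to 0.30) did not pass (unadjusted p = 0.061, adjusted p = 0.19 by edgeR).

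**Figure D2:**
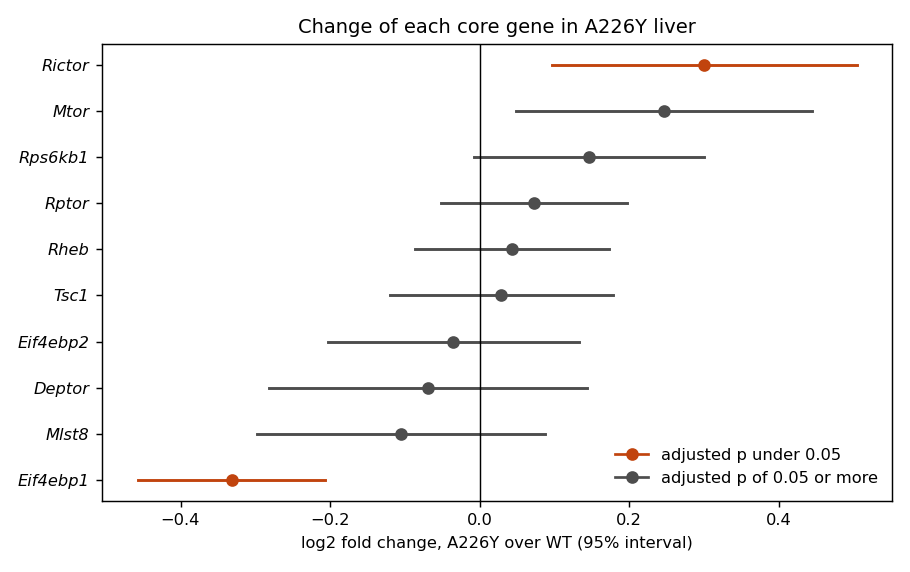
Log2 fold change of each core gene, A226Y over WT, with its 95% interval from the edgeR fit, ordered by size; orange marks an adjusted p-value under 0.05. The intervals of *Rictor*, *Mtor* and *Eif4ebp1* lie clear of 0, and the *Mtor* interval belongs to an adjusted p-value of 0.0847.

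To compare the genes with each other, CPM was divided by the length of the longest annotated transcript, in kb. In WT liver *Rictor* (1.85 ± 0.40 CPM per kb, SD, n = 8) and *Mlst8* (2.03 ± 0.21) were the lowest and lay within 1 SD of each other, below *Tsc1* (2.76 ± 0.32). *Rptor* (5.78 ± 0.43), *Mtor* (5.98 ± 1.202) and *Rps6kb1* (6.12 ± 0.67) formed a middle group whose members did not differ beyond their spread. *Rheb* (14.3 ± 1.2) and *Eif4ebp2* (14.8 ± 1.5) came next, also within their spread, and *Eif4ebp1* (19.9 ± 2.0) and *Deptor* (23.1 ± 1.9) were the highest. In A226Y liver the same measure was 15.8 ± 1.2 CPM per kb (SD, n = 10) for *Eif4ebp1*, within 1 SD of *Rheb* (14.8 ± 1.4) and *Eif4ebp2* (14.4 ± 1.9), while *Deptor* stayed highest at 22.03 ± 3.93. The inhibitor *Deptor* thus had more RNA per length than the kinase it binds in both groups, as far as the longest transcript is the one made in liver.

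The balance between partners was compared as log2 ratios within each mouse, for 6 pairs, with two-sided exact permutation tests and adjustment over the 6. The 4E-BP balance *Eif4ebp1* to *Eif4ebp2* was -1.40 ± 0.22 (SD, n = 10) in A226Y and -1.11 ± 0.23 (SD, n = 8) in WT, so that the ratio fell by 18.1% (exact p = 0.0154, adjusted 0.042). The ratio of *Eif4ebp2* to *Eif4e*, the cap-binding protein it sequesters, fell by 20.04% (log2 difference -0.32, exact p = 0.018, adjusted 0.042). The ratio of *Deptor* to *Mtor* fell by 21.7% (log2 difference -0.35, exact p = 0.021, adjusted 0.042), and 1 of 10 A226Y mice lay outside the WT range. These ratios inherit the changes of their single genes. For *Eif4ebp2* to *Eif4e* the gene that passed was *Eif4e*, which rose (log2 fold change 0.28, adjusted p = 0.00607 by edgeR). Neither *Deptor* nor *Mtor* passed alone. Each of these ratios lost its adjusted call when any of 11, 13 and 14 single mice, respectively, was left out. The ratios of *Rictor* to *Rptor* (log2 difference 0.25, exact p = 0.045, adjusted 0.0675) and of *Rps6kb1* to *Rps6kb2* (0.19, exact p = 0.0608, adjusted 0.073) did not pass. That of *Rheb* to *Tsc1* was 0.01 apart (exact p = 0.949).

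Across the 18 mice, deviations from the genotype means showed *Mtor* and *Rictor* moving together (Pearson r = 0.853, Spearman's rho = 0.728). The genes most like *Mtor* by r among 13352 others were *Rictor*, *Med14* (r = 0.821) and *Ascc3* (r = 0.809). Their order turned without the 2 mice farthest from the median of *Mtor*, with r of 0.674 for *Rictor*, 0.734 for *Med14* and 0.775 for *Ascc3*. By r over all mice, those most like *Rictor* were *Med14* (0.861), *Mtor* and *Akap11* (0.845). Those most like *Eif4ebp1* were *Mxd4* (r = 0.84), *Derl1* (0.831) and *Prkaca* (0.808), and without the 2 mice farthest from its median *Derl1* (0.782) was above *Mxd4* (0.751). Such values are the highest of many and carry no p-value, and all genes of a mouse share its library and its scaling. Among the members, *Eif4ebp1* had a correlation of -0.378 with *Rictor* and -0.0995 with *Eif4ebp2*.

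Beyond the core, 90 genes of the wider pathway were listed by role, and 89 were tested (*Rragb* did not pass the filter). Of these, 10 were higher and 6 were lower, which is 18% beside the 14.3% of all tested genes, and 33 of 89 had an unadjusted p-value under 0.05, beside 29.6% of all tested genes. Their median log2 fold change was 0.05, and 55 of 89 were positive, beside 6549 of 13353 among all tested genes. Scaling by library size alone moved the share of higher genes among all calls from 50.8% to 67.9%, so directions of small changes depend on the scaling. By list, 5 of 12 translation effectors and 4 of 9 genes of the LKB1-AMPK branch passed, while 0 of 12 genes of the RAG-Ragulator-folliculin branch and 0 of 5 TSC-RHEB partners did by edgeR, with 3 and 1 at an unadjusted p-value under 0.05 and 0 in both lists by DESeq2 and limma-voom.

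**Figure D3:**
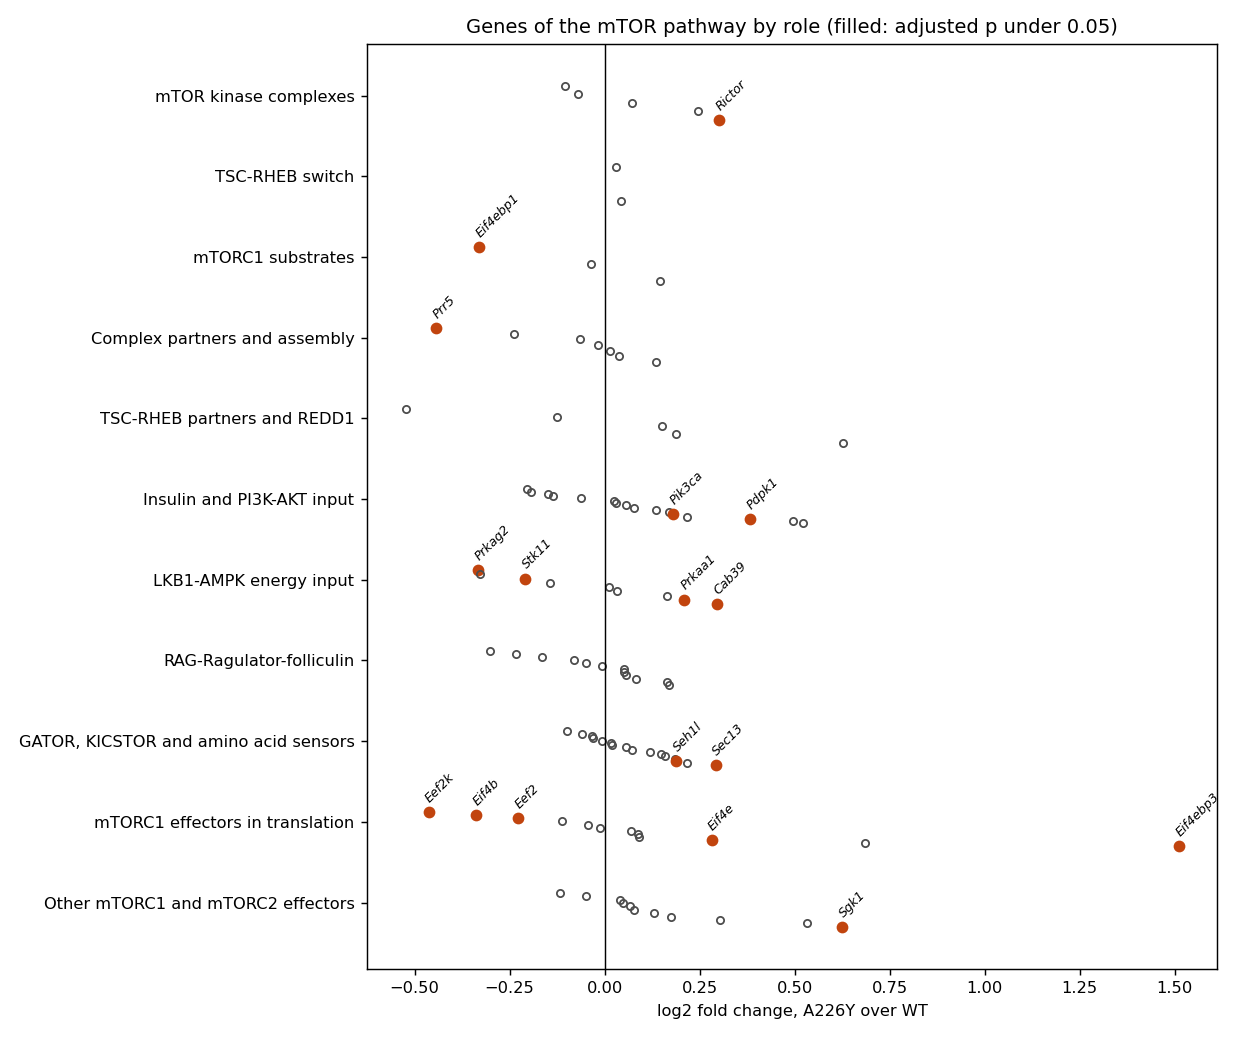
Log2 fold change, A226Y over WT, of the tested genes of the pathway (all but 1), with 1 point per gene drawn in a line per role (vertical offsets within a line only separate points); filled and named points have an adjusted p-value under 0.05. Called genes lie on both sides of 0 in the LKB1-AMPK and translation lists, and *Eif4ebp3* stands far to the right.

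Next to the kinase complexes, *Prr5* was the 1 gene of 7 partners and assembly factors that passed by edgeR, which at 14.3% equals the share of all tested genes. It encodes PROTOR1, which binds RICTOR in mTORC2, and was at 3.22 to 4.61 CPM (median 4.14) in A226Y and 4.36 to 7.55 CPM (median 5.39) in WT. All 10 A226Y mice fell short of the mean of WT and 6 of every WT mouse (log2 fold change -0.44, SE 0.107, adjusted p = 0.011). *Mapkap1*, which encodes the mTORC2 subunit SIN1, had a log2 fold change of 0.13 (SE 0.045) and an adjusted p-value of 0.0517. It passed with DESeq2 (adjusted p = 0.0313), library size scaling (0.0122), the length offset (0.0367) and without the 2 libraries that stood apart (0.025). *Akt1s1*, which encodes the mTORC1 inhibitor PRAS40, had a log2 fold change of -0.02 (adjusted p = 0.909), and its sign turned with library size scaling (0.02) and with both offsets (0.04 and 0.06).

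In the TSC complex, *Tsc2*, the GTPase-activating partner of TSC1, had a log2 fold change of -0.12 (SE 0.058, adjusted p = 0.154), and it passed with the transcript length offset (-0.20, adjusted p = 0.022). It lies 85.5 kb from *Rps2*. *Ddit4*, which encodes the stress-induced inhibitor REDD1, ran from 9.25 to 72.3 CPM (median 15.4) in A226Y and from 5.61 to 21.3 CPM (median 13.5) in WT. The log2 fold change of 0.63 had an SE of 0.352 (adjusted p = 0.241). The highest value was that of A226Y mouse 29, and without it the log2 fold change was 0.15 (adjusted p = 0.648).

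On the insulin side, 2 of 16 genes rose by edgeR and limma-voom and 3 by DESeq2, which for edgeR is 12.5% called beside 14.3% of all tested genes (7.27% higher). *Pdpk1* encodes PDK1, which activates AKT, S6K and SGK kinases, and its groups did not overlap, at 42.7 to 53.6 CPM (median 47.5) in A226Y and 32.7 to 40.5 CPM (median 36.9) in WT. Its log2 fold change was 0.38 (SE 0.056, adjusted p = 0.00077 by edgeR), and its exact permutation p of 2.29e-05 is the smallest this design can give. Complete separation with A226Y above WT was met by 47 of all tested genes (0.352%). *Pdpk1* lies 567 kb from *Rps2*, within the stretch where linked sequence and the mutation cannot be told apart. *Pik3ca*, the catalytic subunit of PI 3-kinase, rose by a log2 fold change of 0.18 (SE 0.056, adjusted p = 0.0374), with 9 A226Y mice above every WT mouse and 1 below every WT mouse, and with the transcript length offset it was 0.05 (adjusted p = 0.591). Its call was also lost with no filter (adjusted p = 0.0582) and with the GC offset (0.11, adjusted p = 0.136).

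The energy-sensing branch held changes in both directions. *Cab39*, which encodes MO25, the scaffold of the LKB1 kinase, separated the groups without overlap at 91.6 to 100.2 CPM (median 94.3) in A226Y and 69.8 to 89.4 CPM (median 75.5) in WT. Its log2 fold change was 0.30 (SE 0.050, adjusted p = 0.00192), with an exact permutation p of 2.29e-05, again the smallest possible. *Prkaa1*, a catalytic subunit of AMPK, rose by 0.21 (SE 0.062, adjusted p = 0.03). *Stk11*, which encodes LKB1 itself, fell by 0.21 on the log2 scale (SE 0.064, adjusted p = 0.0346). The *Stk11* call was lost with library size scaling (adjusted p = 0.107), no filter (0.0513), the length offset (0.0562) and the GC offset (-0.13, adjusted p = 0.177), and that of *Prkaa1* with the length offset (0.19, adjusted p = 0.05) and the GC offset (0.13, adjusted p = 0.176). *Prkag2*, a regulatory AMPK subunit, fell by 0.33 (SE 0.066, adjusted p = 0.00363), with all 10 A226Y mice below the WT mean.

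Amino acid sensing showed 3 of 17 genes higher and 0 lower by edgeR, DESeq2 and limma-voom alike. By edgeR this is 17.6% called, beside 14.3% of all tested genes in either direction (7.27% higher). At an unadjusted p-value under 0.05 there were 5 of 17 by edgeR, beside 29.6% of all tested genes. *Sec13* and *Seh1l*, which belong both to the GATOR2 complex and to the nuclear pore coat, rose by 0.29 (SE 0.072, adjusted p = 0.0118) and 0.19 (SE 0.059, adjusted p = 0.0384). The *Seh1l* call was lost with no filter (adjusted p = 0.059) and with the GC offset (0.12, adjusted p = 0.113). *Sesn2*, a leucine sensor, had a log2 fold change of -0.03 (SE 0.151, adjusted p = 0.913).

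Among all pathway genes tested, the largest log2 fold change was that of a translation effector. *Eif4ebp3*, the third 4E-BP gene, ran from 14.6 to 123.8 CPM (median 34.7) in A226Y and from 8.37 to 22.7 CPM (median 17.9) in WT. Of the A226Y mice, 6 were above every WT mouse, led by mice 32 and 29 at 123.8 and 94.1 CPM, and the other 4 were within the WT range. The log2 fold change was 1.51 (SE 0.403, adjusted p = 0.0175 by edgeR, exact permutation p = 0.0143), and it was 1.19 (adjusted p = 0.0562) with limma-voom and 0.44 (adjusted p = 0.499) with surrogate variables. An annotated protein-coding gene that shares exons with *Eif4ebp3* on the same strand is not in the count lists, and how reads of those exons were assigned is not given in the sources used here. Of the 3 4E-BP genes, then, *Eif4ebp1* fell, *Eif4ebp3* rose and *Eif4ebp2* did not pass, while *Eif4e*, the cap-binding protein itself, rose by 0.28 (SE 0.061, adjusted p = 0.00607), with 5 A226Y mice above every WT mouse.

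In the same list of 12 effectors 2 genes were higher and 3 lower (41.7%, beside 14.3% of all tested genes, with a median change of 0.03 on the log2 scale), and the 3 that fell were *Eef2k*, *Eef2* and *Eif4b*. *Eef2k*, the kinase that inhibits elongation factor 2, was at 6.67 to 13.7 CPM (median 9.92) in A226Y and 13.2 to 16.7 CPM (median 13.8) in WT, with 8 A226Y mice below every WT mouse (log2 fold change -0.46, SE 0.126, adjusted p = 0.0195). Its target *Eef2* fell by 0.23 on the log2 scale (SE 0.070, adjusted p = 0.0351), and *Eif4b*, a cofactor of the eIF4A helicase, fell by 0.34 (SE 0.111, adjusted p = 0.0455). The *Eif4b* call was also lost with RLE scaling (adjusted p = 0.0512), library size scaling (0.0728), no filter (0.0604), the length offset (0.0582) and the GC offset (0.069). That of *Eef2* was lost with library size scaling (0.086), no filter (0.0577), the length offset (0.0591) and the GC offset (0.139). *Rps6kb2*, which encodes S6K2, had a log2 fold change of -0.04 (adjusted p = 0.669). *Rps6* was counted with only 2 to 33 reads per mouse, and its log2 fold change was 0.68 (SE 0.250, adjusted p = 0.0695). Ribosomal protein genes such as *Rps6* and *Rps2* have many copies in the genome, and how reads matching several places were treated is not given in the sources used here, so both values are uncertain in that respect, which was not tested. The test of *Rps6* passed with the GC offset (0.75, adjusted p = 0.0475) and without WT mouse 6 (0.78, adjusted p = 0.042).

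Downstream of mTORC2, *Sgk1*, a kinase that needs both mTORC2 and PDK1, was the 1 gene of 11 further effectors that passed by edgeR (9.09%, beside 14.3% of all tested genes) and by limma-voom, while DESeq2 called 3 of the 11. It was at 37.3 to 79.3 CPM (median 49.9) in A226Y and 24.6 to 46.1 CPM (median 31.5) in WT. All 10 A226Y mice exceeded the mean of WT and 6 exceeded every WT mouse (log2 fold change 0.62, SE 0.147, adjusted p = 0.00935 by edgeR).

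**Figure D4:**
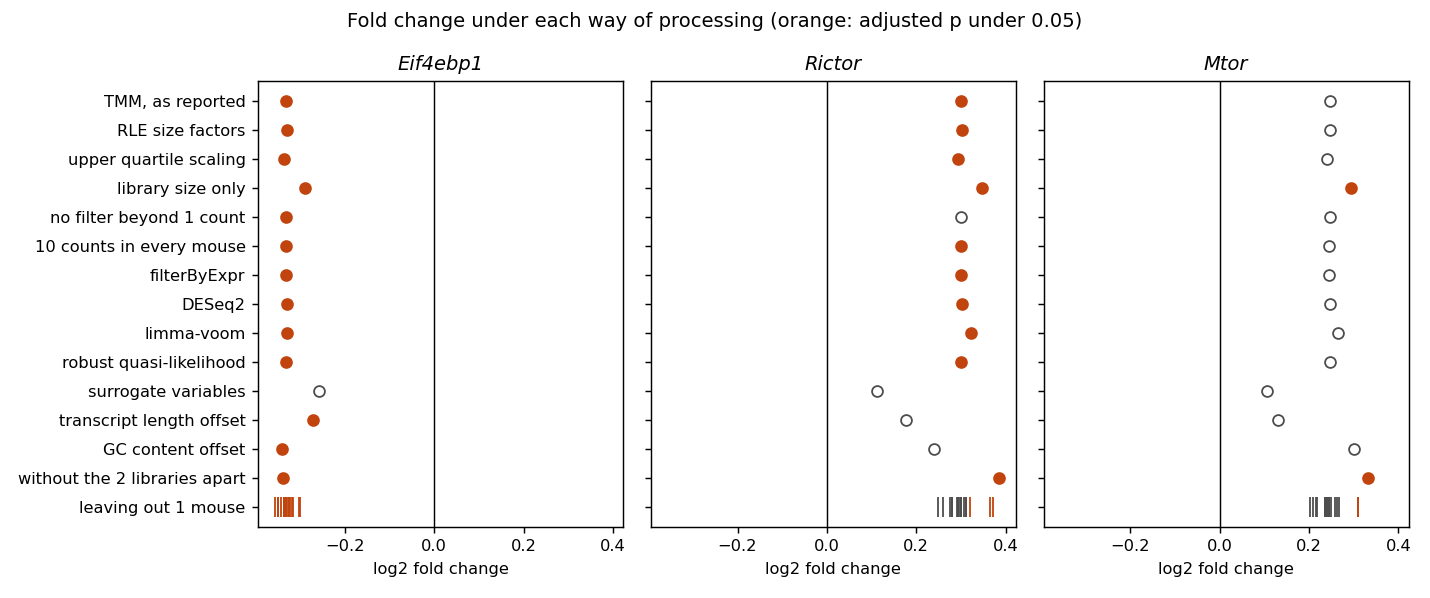
Log2 fold change, A226Y over WT, of *Eif4ebp1*, *Rictor* and *Mtor* under each way of processing the counts, on a linear axis; orange circles and ticks mark an adjusted p-value under 0.05, and each tick leaves out 1 mouse. *Eif4ebp1* is orange in all but the surrogate variable fit, while *Rictor* and *Mtor* lie on both sides of the threshold.

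Of the 16 called pathway genes beyond the core, 9 stayed called whichever mouse was left out: *Pdpk1*, *Cab39*, *Eif4e*, *Sgk1*, *Prr5*, *Sec13*, *Prkag2*, *Eef2k* and *Eif4ebp3*. The calls of *Prkaa1*, *Stk11*, *Eef2*, *Pik3ca*, *Seh1l* and *Eif4b* were each lost without A226Y mouse 7 and each lost without WT mouse 13, and without other single mice as well. With surrogate variables 3 of the 16 calls remained, those of *Pdpk1* (0.26, adjusted p = 0.0194), *Cab39* (0.18, adjusted p = 0.0443) and *Eif4e* (0.28, adjusted p = 0.0347).

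Several of these genes overlap others on the genome, and whether counting used the strand of the reads is not given in the sources used here. On the opposite strand, exons of *Mlst8* overlap those of *Bricd5*, exons of *Rps6kb1* those of *Rnft1*, and exons of *Deptor* those of *Gm9920*, so without strand such reads cannot be told apart. The same holds for *Rptor* with its antisense gene *Rptoros*, and in the wider pathway for *Tsc2* with *Pkd1*, *Akt1s1* with *Tbc1d17*, *Stk11* with *Cbarp*, *Prkag2* with *Prkag2os1* and *Prkag2os2*, *Eef2k* with *Gm15774*, *Seh1l* with *4930549G23Rik* and *Rps6kb2* with *Coro1b* and *Ptprcap*. *Eif4ebp1*, *Rictor*, *Mtor*, *Tsc1*, *Rheb* and *Eif4ebp2* share no exon with another annotated gene.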

How the data were processed

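Liver RNA-Seq of 18 mice was analysed from the raw read counts of each Ensembl gene, whole numbers in 1 list per library, which the authors deposited without normalization. The submitters' processing notes name bcl2fastq, fastp, STAR, featureCounts, MultiQC and GRCm38, with no roles. The study's methods name RSEM with an Ensembl annotation and write another assembly. Which step gave the deposited counts is not given in the sources used here. Positions and symbols came from GENCODE M21 on GRCm38 (22214 of 22524 identifiers found), and lengths are those of the longest annotated transcript.

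A gene was tested if 50% or more of the mice of 1 genotype had 10 or more counts (13353 genes), with edgeR 4.0.16 in R 4.3.3, using TMM scaling, the quasi-likelihood test, no covariates and Benjamini-Hochberg adjustment. CPM values are TMM-scaled. The SE of a log2 fold change was computed as that change over the root of F. The common biological coefficient of variation was 0.194, so the spread between mice set the precision except at low counts, such as those of *Rps6*. P-values weigh the difference between the groups against the spread between these mice. Same-genotype libraries differed far beyond sampling noise (chi-square per degree of freedom at least 19.7), so none was counted as a repeat. Log2 ratios were taken on raw counts, with a pseudocount of 0.5 added to each count.

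The genes named were all 10 members, *Rps2*, the called pathway genes up to the 20 of smallest p, 10 pathway genes set by name, and the 3 genes most like *Mtor* and each called member. *Clec4f*, *Colec11*, *Rragb* and the overlapping genes were named after their values were seen. The values of 1 called pathway gene are not reported here, and it is not drawn, though counts of calls include it. Members, lists and tests were chosen with earlier results of these data known. Alternatives were other scalings (RLE, upper quartile, library size only) and filters, DESeq2 1.42.0, limma-voom 3.58.1, a robust fit, 4 surrogate variables from sva 3.50.0, lowess offsets on transcript length or GC content, and leaving out each mouse. Length and GC content were known for 99.6% of tested genes. The procedures were tested on simulated data.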

Additional observations from a re-analysis of the deposited data

Results flagged for a closer look

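In 6 of 80 groups checked, the highest or lowest mouse lay apart from its group by Dixon's 95% limit, which chance passes in about 1 group of 20. All 6 were in A226Y. Mouse 23, which has the deepest library, was low for *Rptor* (32.02 CPM) and for *Tsc1* (17.48 CPM), and high for the log2 ratio of *Rheb* to *Tsc1* (2.061). Mouse 29, 1 of the 2 libraries that stood apart, was low for *Deptor* (114.0 CPM) and high for *Ddit4* (72.34 CPM) and *Sesn2* (21.68 CPM). No test of the cause was made.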

How the results depend on the processing

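The number of called genes was 1910, with 248 under surrogate variables, and from 1255 (without WT mouse 14) to 2560 (without A226Y mouse 29) when 1 mouse was left out. Of the 10 members, 2 were called. This became 1 without a filter beyond 1 count, with the length offset and with the GC offset, 0 with surrogate variables, and 1 to 3 when 1 mouse was left out. The 16 calls among other pathway genes became 3 with surrogate variables and 10 to 24 when 1 mouse was left out. *Rictor* (0.30) lost its call at 0.30 (no filter, adjusted p = 0.0568), 0.11 (surrogate variables), 0.18 (length) and 0.24 (GC), and ran from 0.25 to 0.37 when 1 mouse was left out. *Mtor* (0.25) gained a call with library size scaling (0.29, adjusted p = 0.023) and without the 2 libraries that stood apart (0.33), an alternative chosen after seeing the data, was 0.13 with the length offset and 0.11 with surrogate variables, and ran from 0.20 to 0.31. *Eif4ebp1* lost its call with surrogate variables only (-0.26).

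Signs turned for *Rptor* (-0.014, length), *Tsc1* (-0.050 with surrogate variables, -0.076 with length, and -0.0030 to 0.062 when 1 mouse was left out), *Eif4ebp2* (0.0059 with library size, 0.0071 with GC), *Akt1s1* (0.025 with library size, 0.036 with length, 0.062 with GC, and -0.059 to 0.037), *Rps6kb2* (0.016 with GC), *Ddit4* (-0.058 with surrogate variables) and *Sesn2* (0.014 with library size, 0.13 with surrogate variables, 0.025 with GC, and -0.14 to 0.041). Without the 2 libraries the log2 ratio of *Rictor* to *Rptor* passed at 0.36 and that of *Rps6kb1* to *Rps6kb2* at 0.26, that of *Eif4ebp2* to *Eif4e* no longer passed at -0.26, and that of *Rheb* to *Tsc1* was -0.011. When 1 mouse was left out, the ratios ran from 0.20 to 0.32 (*Rictor* to *Rptor*), -0.44 to -0.30 (*Deptor* to *Mtor*), -0.059 to 0.072 (*Rheb* to *Tsc1*), -0.33 to -0.23 (*Eif4ebp1* to *Eif4ebp2*), -0.39 to -0.28 (*Eif4ebp2* to *Eif4e*) and 0.16 to 0.25 (*Rps6kb1* to *Rps6kb2*). The cause was not tested in any of these cases.

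No paired analysis was possible because each number in the library titles belongs to 1 mouse, and the groups share none. The labels name no batch, so none was compared. Mosaic excision means that the values average mutant cells and cells with 1 silent copy of *Rps2*.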
